A study of Mus musculus with 15 samples.

Results

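The genes described here are 7 genes of ketone body metabolism and of the fasting response, Bdh1, Acat1, Oxct1, Cpt1a, Pdk4, Fgf21 and Angptl4. They were taken by gene name from the liver and lung count tables, each of which lists 54532 genes. The set was chosen with earlier results of these data known. RNA was sequenced from 15 tissue samples of 9 mice, of which 6 gave both tissues. All mice were wild type C57BL/6J, an inbred laboratory strain, with an age label of 28 weeks, and the study used males. The study's text gives that same number as weeks of feeding, and the mice were past weaning at its start, so by that account they were older than the label. The CS group ate a control diet and the PS group a diet with 2% phytosterols, plant sterols that resemble cholesterol. There were 4 Liver CS, 5 Liver PS, 3 Lung CS and 3 Lung PS libraries, each a poly(A) RNA library of 1 piece of tissue of 1 mouse. Feeding state and hour of the day at tissue collection are not given in the sources used here.

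During fasting the liver burns fatty acids and releases ketone bodies, which other organs oxidise for energy. CPT1A admits long-chain fatty acids to the mitochondrion. ACAT1 interconverts acetyl-CoA and acetoacetyl-CoA, BDH1 interconverts acetoacetate and beta-hydroxybutyrate, and OXCT1 starts ketone body use in organs other than the liver, whose hepatocytes hardly express it. PDK4 switches off pyruvate dehydrogenase and so spares glucose. FGF21 is a hormone secreted by the liver, and ANGPTL4 is a secreted inhibitor of lipoprotein lipase. Several of these genes are textbook targets of PPAR-alpha, the nuclear receptor activated by fatty acids.

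On the mouse build GRCm38 (mm10) the files place Bdh1 (ENSMUSG00000046598) at chr16:31422280-31458901 on the plus strand, Acat1 (ENSMUSG00000032047) at chr9:53580522-53610382 on the minus strand and Oxct1 (ENSMUSG00000022186) at chr15:4026383-4155344 on the plus strand. Cpt1a (ENSMUSG00000024900) lies at chr19:3323301-3385732 on the plus strand and Pdk4 (ENSMUSG00000019577) at chr6:5483351-5496309 on the minus strand. Fgf21 (ENSMUSG00000030827) lies at chr7:45613886-45615490 and Angptl4 (ENSMUSG00000002289) at chr17:33773750-33781575, both on the minus strand. All 7 are protein coding. The values are counts over the exons of each whole gene. Exons of Oxct1 overlap 467 bases of the antisense gene BC037032, and those of Bdh1 overlap 533 bases of the antisense gene Gm15743, and the strand setting of the counting is not given in the sources used here.

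The total count per library was 15366668 to 16644617 in Liver CS, 14410117 to 17625179 in Liver PS, 17934930 to 19396057 in Lung CS and 18075831 to 18241817 in Lung PS. Livers had summed hepatocyte markers of 42474 to 66489 FPKM (fragments per kilobase of gene, scaled by library), against 3.22 to 70.3 in lungs, so the tissue labels matched their markers. A pair of livers stood apart. Liver CS replicate 2 and Liver PS replicate 1 had 14.4% and 13.3% of counts on the mitochondrial genome, against 3.33% to 9.79% in the other 7, and 10.1% and 9.59% on genes shorter than 1 kb, against 4.64% to 9.21%. Bdh1, Acat1, Cpt1a and Pdk4, 4 of the 7 genes, had their lowest value of each diet in these libraries, and results for them are given with and without both. In the lung the mitochondrial share was 2.94% to 3.51% in CS and 3.69% to 7.28% in PS, with no overlap. With these counts removed from the lung fit, the log2 fold changes were -0.51 for Acat1, -0.47 for Cpt1a, -0.49 for Pdk4 and 0.46 for Angptl4. No member was called by edgeR in that fit. Any part of this share in the lung results beyond the counts themselves was not tested.

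In the liver, the diets were compared to see how phytosterols altered the transcripts. None of the 7 genes passed edgeR's quasi-likelihood test at an adjusted p under 0.05 (Benjamini-Hochberg over 13195 genes), where the background was 0% of all genes lower and 0.00758% higher. Of the 7, 3 were lower in PS at an unadjusted p of at most 0.05 (Pdk4, Fgf21 and Oxct1) and 0 were higher, against a background of 3.58% lower and 3.96% higher. Their median log2 fold change was -0.41, with 2 above and 5 below 0, and that of all genes tested was -0.03. With DESeq2's Wald test 2 of the 7, Pdk4 and Fgf21, passed the adjusted threshold as lower and 0 as higher, against 0.402% and 0.835% of all genes. The diets' ranges did not overlap for 1 gene, Fgf21, where 1.53% of all genes had such lower ranges in PS and 2.1% such higher ones.

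Of the 7 genes, Pdk4 had the widest difference in the liver. Its 4 Liver CS values were 69.2, 8.83, 39.9 and 39.7 CPM (counts scaled by library depth with TMM), in order of replicate number. Its 5 Liver PS values were 4.33, 14.7, 4.84, 12.9 and 5.84 CPM. In the CS group, 3 of 4 livers lay above every PS liver, while CS replicate 2, the library with the highest mitochondrial share, lay within the PS range. The means were 39.4 ± 24.6 CPM (SD, n = 4) and 8.52 ± 4.89 CPM (SD, n = 5), a level 4.61-fold higher in CS, with a log2 fold change of PS against CS of -2.20 ± 0.53 (SE, edgeR adjusted p = 0.230, unadjusted p = 0.00149, place 84 of 13195 by p). Without both livers that stood apart it was -2.37 with an adjusted p of 0.0420, without CS replicate 2 alone the adjusted p was 0.0212, and with DESeq2 it was 0.00504. Over 20 alternatives the log2 fold change ran from -2.53 to -1.68 and the adjusted p from 0.00504 to 1.00, with 3 of 20 under 0.05.

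Fgf21 came next. The Liver CS values were 66.2, 31.4, 30.5 and 46.5 CPM. The Liver PS values were 19.9, 25.9, 15.04, 7.47 and 4.97 CPM. Every CS liver lay above every PS liver, and the livers that stood apart took no extreme place in either diet. The means were 43.7 ± 16.7 CPM (SD, n = 4) and 14.7 ± 8.65 CPM (SD, n = 5), 2.98-fold higher in CS. The log2 fold change was -1.58 ± 0.43 (SE, edgeR adjusted p = 0.321, unadjusted p = 0.00376), -1.84 without both livers that stood apart (adjusted p = 0.185), and -1.58 with DESeq2 (adjusted p = 0.0393). That was the 1 of 20 alternatives that passed, and the adjusted p over all of them ran from 0.0393 to 1.00. In whole tissue, fewer cells that express a gene and less of its RNA per cell cannot be told apart.

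**Figure D1:**
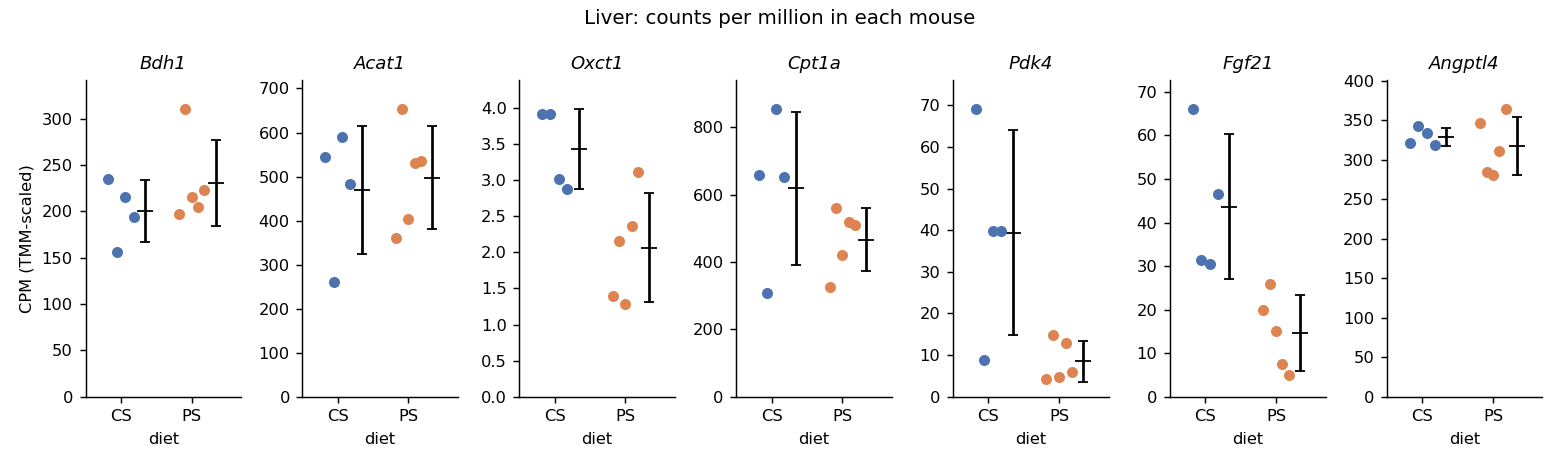
CPM of the 7 genes in each liver, CS in blue and PS in orange, with the mean and SD as the black bar and each panel on its own linear axis from 0. Fgf21 is the gene whose diets do not overlap, and for Pdk4 a single CS liver at 8.83 CPM lies among the PS livers.

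The sequence before the start of Fgf21 and Pdk4 is shown because these genes differed most between the diets in the liver. It comes from RefSeq on GRCm38.p6, whose promoter table holds Bdh1, Oxct1, Cpt1a, Pdk4 and Fgf21, 5 of the 7 genes. Each run is written 5′ to 3′ on the minus strand, the coding strand of both genes, and covers chr7:45615491-45615740 for Fgf21 and chr6:5496310-5496528 for Pdk4. The run of Pdk4 stops at the edge of the gene in the count tables, which lies upstream of the RefSeq start from which positions are counted. Capitals mark matches to motifs searched on both strands.
Fgf21: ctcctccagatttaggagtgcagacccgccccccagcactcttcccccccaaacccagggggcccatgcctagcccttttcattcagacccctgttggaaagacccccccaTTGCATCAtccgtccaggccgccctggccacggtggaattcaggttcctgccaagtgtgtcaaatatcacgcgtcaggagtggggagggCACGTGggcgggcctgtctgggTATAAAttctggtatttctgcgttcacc
Pdk4: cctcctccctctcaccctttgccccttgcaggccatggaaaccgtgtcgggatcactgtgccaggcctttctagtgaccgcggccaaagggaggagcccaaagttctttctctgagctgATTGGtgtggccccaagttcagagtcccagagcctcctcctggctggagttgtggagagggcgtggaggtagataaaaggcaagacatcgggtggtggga

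In the Fgf21 promoter, TTGCATCA, the motif of amino acid response elements, lies at -139 to -132 from the RefSeq start, and 0.895% of the 32851 mouse promoters of the same length hold it. CACGTG, the E-box that clock factors and others bind, lies at -50 to -45 (7.15% of promoters), and TATAAA, the TATA box, at -28 to -23 (13.6%). The cyclic AMP response half-site TGACG stands on the other strand at -68 to -64 (20.8%) and is not in capitals. The Pdk4 promoter holds the CCAAT box, read on the other strand as ATTGG, at -131 to -127 (37.4%). In the Cpt1a promoter the nuclear receptor half-site AGGTCA lies on the other strand at -94 to -89 (16.3%) and CCAAT at -19 to -15. The D-box TTATGTAA (0.938% of promoters), the FOXO motif GTAAACA (3.65%), the direct repeat 1 element of nuclear receptors with up to 2 mismatches (3.86%) and the glucocorticoid response element with up to 2 mismatches (1.84%) had no match in these windows. These are matches of letters, and binding was not measured.

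Oxct1, the enzyme of ketone body use, was scarce in the liver. It had 3.92, 3.91, 3.02 and 2.88 CPM in the CS livers, from 45 to 71 counts per library. It had 1.39, 2.16, 1.28, 2.36 and 3.12 CPM in the PS livers, from 18 to 47 counts. PS replicate 5 lay above CS replicates 3 and 4, and the other PS livers lay below all CS livers. The log2 fold change was -0.73 ± 0.32 (SE, edgeR adjusted p = 0.638, unadjusted p = 0.0412), and the unadjusted p rose above 0.05 without CS replicate 1 (0.0932), CS replicate 2 (0.0712), PS replicate 1 (0.0785), PS replicate 2 (0.0612) or PS replicate 3 (0.0893). Macrophage markers lay on the same side. All 6 were below 0 in log2 fold change (median -0.69, 2 of 6 at an unadjusted p of at most 0.05), and their summed level was 52.5 to 86.8 FPKM in CS and 19.8 to 61.2 FPKM in PS. Endothelial markers (5 of 5, median -0.56, 1 of them at that p) and fibroblast and stellate markers (6 of 6, median -0.42, 0 at that p) were below 0 as well. The part of these cells in the Oxct1 difference was not tested.

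Cpt1a had 659, 309, 856 and 651 CPM in the CS livers and 326, 559.9, 422, 518 and 509 CPM in the PS livers. The lowest value of each diet came from a liver that stood apart, and the other 3 CS livers lay above all PS livers. The log2 fold change was -0.41 ± 0.28 (SE, edgeR adjusted p = 0.802). Without both of those livers it was -0.52 (adjusted p = 0.271), without CS replicate 2 alone -0.63 (adjusted p = 0.210) and without CS replicate 3 -0.21 (adjusted p = 0.925).

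The synthesis enzymes Bdh1 and Acat1 gave no call. Bdh1 had 235, 157, 215 and 194 CPM in CS and 197, 311, 215, 205 and 224 CPM in PS, a log2 fold change of 0.20 ± 0.20 (SE, edgeR adjusted p = 0.893), or 0.15 without both livers that stood apart (adjusted p = 0.785). Acat1 had 545, 261, 589.9 and 483 CPM in CS and 361, 654, 403, 531 and 536 CPM in PS, a log2 fold change of 0.08 ± 0.26 (SE, edgeR adjusted p = 0.982) that turned to -0.02 without both livers that stood apart. For both enzymes the ranges of the diets overlapped, and the diet means differed by less than the SD of either diet.

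Angptl4 had the smallest fold change of the 7 in the liver. The CS values were 321, 343, 333 and 318 CPM and the PS values 346, 284, 281, 311 and 365 CPM. The CS range lay inside the PS range, and the log2 fold change was -0.05 ± 0.16 (SE, edgeR adjusted p = 0.981).

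In the ketone body pathway list, members included, no liver gene passed the adjusted threshold among the 11 tested of 15 listed. Of these 11, 8 were above and 3 below 0 (median 0.09). The liver background at an unadjusted p of at most 0.05 was 3.96% higher and 3.58% lower. At an unadjusted p of at most 0.05, 3 were higher, the cytosolic ligase of acetoacetate Aacs, the cytosolic thiolase Acat2 and the monocarboxylate transporter Slc16a7, and 2 were lower, Oxct1 and the monocarboxylate transporter Slc16a1. Aacs was 4.75 ± 2.63 CPM (SD, n = 4) in CS and 13.3 ± 3.20 CPM (SD, n = 5) in PS, a log2 fold change of 1.49 ± 0.38 (SE, edgeR adjusted p = 0.288). Every PS liver, at 10.2 to 17.4 CPM, lay above every CS liver, at 1.54 to 7.84 CPM. Acat2 was 26.9 ± 4.19 and 41.5 ± 6.28 CPM, a log2 fold change of 0.63 ± 0.17 (SE, edgeR adjusted p = 0.321), and both of these cytosolic enzymes feed lipid and sterol synthesis. Slc16a7 had a log2 fold change of 0.57 ± 0.20 and Slc16a1 of -1.25 ± 0.49 (SE). The cytosolic dehydrogenase Bdh2 had 0.43 ± 0.21 and the transporter Slc16a6 0.09 ± 0.30.

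The partners of the other members were counted in the same way, against the same background of 3.58% lower and 3.96% higher. In the carnitine shuttle, which holds Cpt1a, 8 of 9 genes tested were below 0 (median -0.43) and 4 were lower at an unadjusted p of at most 0.05, and the neuronal paralogue Cpt1c, at 3 to 33 counts per liver, had a log2 fold change of 0.41 ± 0.85 (SE). The muscle paralogue Cpt1b fell below the filter. Among 11 genes of pyruvate dehydrogenase control, 1 was lower at that p (Pdk4) and 1 higher, the kinase Pdk1 with 0.43 ± 0.18 (SE, edgeR adjusted p = 0.616), while its paralogue Pdk2 had 0.22 ± 0.21. Of 7 genes of the FGF21 list, which holds its receptors, 4 were below 0 (median -0.22) and Fgf21 was the 1 at an unadjusted p of at most 0.05. Of 11 genes around ANGPTL4 and lipoprotein lipase, 7 were below 0 (median -0.12), 2 of them and 1 above 0 at that p, and the hepatic paralogue Angptl8 had -0.65 ± 0.72. The lipolysis list had 3 of 5 genes below 0, and the integrated stress response list, which also holds Fgf21, 5 of 9, with 3 lower and 1 higher at that p.

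PPAR-alpha regulators and other genes that fasting is known to induce were set beside the members. The background at an unadjusted p of at most 0.05 was again 3.58% lower and 3.96% higher. Ppara itself was 51.6 ± 38.5 CPM (SD, n = 4) in CS and 33.8 ± 13.5 CPM (SD, n = 5) in PS, a log2 fold change of -0.61 ± 0.45 (SE, edgeR adjusted p = 0.826). Of the 15 regulators tested 10 were above 0 (median 0.18), with 3 higher and 1 lower at an unadjusted p of at most 0.05. Of 23 other fasting-induced genes 18 were below 0 (median -0.65), with 11 lower and 2 higher at that p, and 0 of them passed the adjusted threshold. The lower ones, named after their values were seen, include Cyp4a10, a fatty acid hydroxylase, at 2941 ± 141 CPM in CS and 1843 ± 177 CPM in PS (log2 fold change -0.67 ± 0.16 SE, edgeR adjusted p = 0.230), and Igfbp1 with -1.60 ± 0.58 and Irs2 with -1.18 ± 0.45, both insulin-repressed genes. The 2 higher ones, Fkbp5 with 0.77 ± 0.25 and Tsc22d3 with 1.36 ± 0.41, are known for their induction by glucocorticoids.

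Clock genes were set beside them as well, over the same background of 3.96% higher and 3.58% lower. Of 16 tested in the liver, 11 were above and 5 below 0, with 10 higher and 4 lower at an unadjusted p of at most 0.05 and 0 past the adjusted threshold. Arntl, the activator of the clock, was 13.9 to 23.2 CPM in CS livers and 4.02 to 9.66 CPM in PS livers, and the repressor Nr1d1 was 20.4 to 41.0 CPM in CS and 73.1 to 109 CPM in PS. Neither overlapped between the diets (edgeR adjusted p = 0.0974 and 0.103), where 1.53% of all genes had such lower ranges in PS and 2.1% such higher ones. Arntl was named after its values were seen. Their part in the values of Pdk4, Fgf21 and the other fasting genes was not tested.

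**Figure D2:**
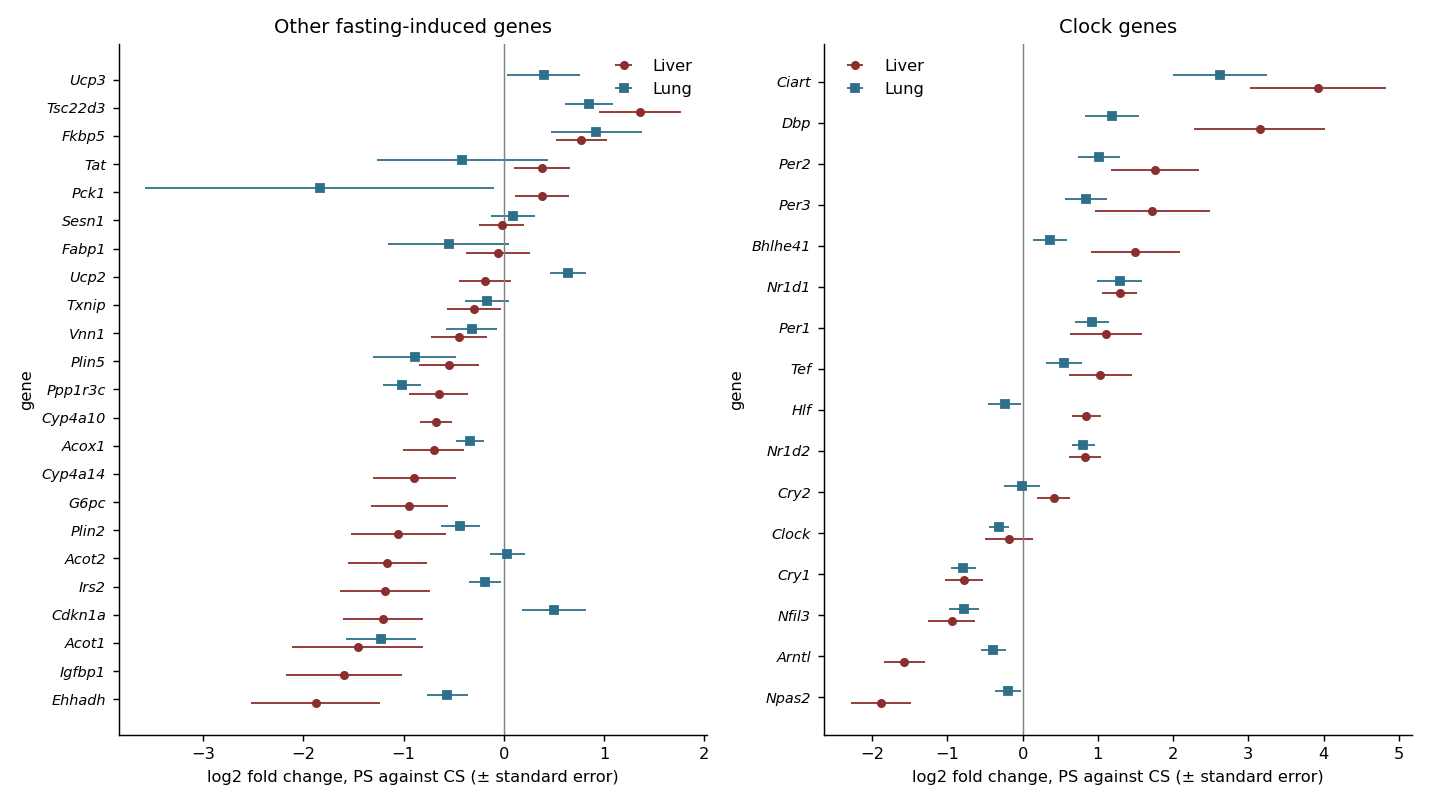
Log2 fold change of PS against CS with its standard error for the other fasting-induced genes (left) and the clock genes (right), livers as red circles and lungs as blue squares, with genes below the filter of a tissue and 1 listed fasting-induced gene not drawn. In the liver 18 fasting-induced genes lie below 0 and 11 of 16 clock genes above 0.

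In the lung, none of the 6 genes that passed the filter was called by edgeR at an adjusted p under 0.05, where the background over 16717 genes was 4.8% higher and 4.43% lower. At an unadjusted p of at most 0.05, 3 of the 6 were lower in PS (Acat1, Cpt1a and Pdk4), against a background of 14.5%, and 1 was higher (Angptl4), against 15.6%. The ranges of the diets did not overlap for Acat1, Oxct1 and Cpt1a, lower in PS, and for Angptl4, higher in PS, where 18.8% and 17.3% of all genes had such ranges. The median log2 fold change was -0.41, with 1 above and 5 below 0, and that of all genes tested was 0.01. With DESeq2 2 of the 6 passed the adjusted threshold as lower and 0 as higher, against 8.86% and 9.65% of all genes. Without Lung PS replicate 1 edgeR called 3 lower and 0 higher, against 6.95% and 10.2%.

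Cpt1a was even among the control lungs, at 179, 186 and 180.0 CPM. The PS lungs had 144, 118 and 136 CPM. All PS lungs lay below all CS lungs, with means of 182 ± 3.79 and 133 ± 13.6 CPM (SD, n = 3 each). Its log2 fold change came to -0.45 ± 0.14 (SE, edgeR adjusted p = 0.0673), with an adjusted p of 0.0214 by DESeq2, 0.0402 without PS replicate 1 and up to 0.202 with another lung left out.

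Acat1 had 78.8, 100.5 and 99.3 CPM in the CS lungs and 72.5, 61.3 and 62.9 CPM in the PS lungs. Its groups did not overlap either, though CS replicate 1 lay near the highest PS lung. The log2 fold change was -0.50 ± 0.15 (SE, edgeR adjusted p = 0.0650), with an adjusted p of 0.0321 by DESeq2, 0.0384 without PS replicate 1 and up to 0.236 with another lung left out, and the unadjusted p of 0.00885 rose above 0.05 without CS replicate 3 (0.0583). Oxct1, abundant in the lung, had 85.9, 84.5 and 93.6 CPM in CS and 81.3, 69.7 and 65.8 CPM in PS, a log2 fold change of -0.28 ± 0.14 (SE, edgeR adjusted p = 0.202). Its smallest gap between the groups lay at PS replicate 1, and without that lung the adjusted p was 0.0756. Without CS replicate 3 the log2 fold change was -0.20 (adjusted p = 0.532), and with a GC trend removed it was -0.19 (adjusted p = 0.371).

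Pdk4 had 49.1, 66.5 and 60.4 CPM in the CS lungs and 49.5, 34.9 and 42.0 CPM in the PS lungs. The groups touched, with CS replicate 1 just below PS replicate 1. The diet effect on the log2 scale was -0.48 ± 0.18 (SE, edgeR adjusted p = 0.115), and without PS replicate 1 it was -0.62 (adjusted p = 0.0498). Without PS replicate 2 it was -0.36 (adjusted p = 0.302), and the unadjusted p of 0.0267 rose above 0.05 without CS replicate 2 (0.0906), CS replicate 3 (0.0918) or PS replicate 2 (0.0893), and with a GC trend removed (0.0642). Bdh1 was low in the lung, with 5.21, 4.57 and 4.78 CPM in CS and 6.09, 2.12 and 3.03 CPM in PS. PS replicate 1 was the highest and the other PS lungs the lowest of all 6, and the log2 fold change was -0.37 ± 0.38 (SE, edgeR adjusted p = 0.541), with -0.92 without PS replicate 1 (adjusted p = 0.0660), -0.09 without PS replicate 2 (adjusted p = 0.910) and -0.24 without PS replicate 3 (adjusted p = 0.730).

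Angptl4 was the gene with higher values in PS lungs. The CS lungs had 116, 176 and 136 CPM and the PS lungs 182, 198 and 214 CPM. All PS lungs lay above all CS lungs, by a small margin over CS replicate 2. This gave a log2 fold change of 0.47 ± 0.18 (SE, edgeR adjusted p = 0.116), with an adjusted p of 0.0719 by DESeq2 and 0.0959 to 0.334 when each lung was left out in turn. The unadjusted p of 0.0272 rose above 0.05 without CS replicate 1 (0.124), CS replicate 3 (0.0684), PS replicate 2 (0.0513) or PS replicate 3 (0.0655). Fgf21 had 1, 2 and 0 counts in the CS lungs and 2, 0 and 0 counts in the PS lungs. All were under the 3 counts that a count of 0 allows, or 0.152 to 0.178 CPM per library, and at this depth a difference between the diets could not be detected.

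**Figure D3:**
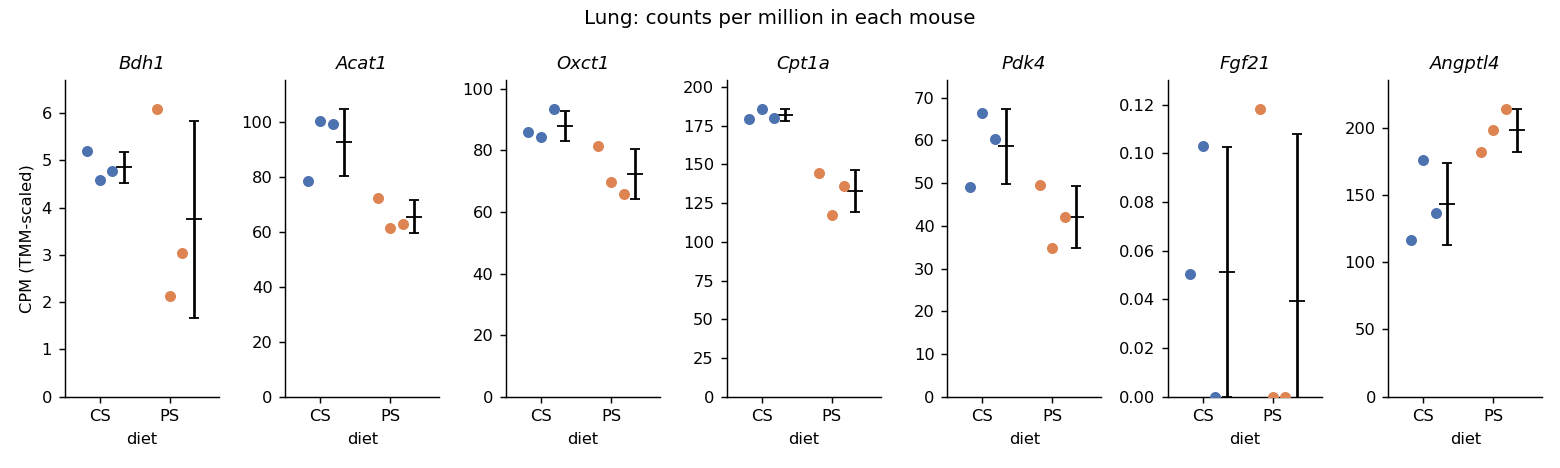
CPM of the 7 genes in each lung, CS in blue and PS in orange, with the mean and SD as the black bar and each panel on its own linear axis from 0. The PS lungs lie below the CS lungs for Acat1, Oxct1 and Cpt1a and above them for Angptl4, and Fgf21 is at 0 to 2 counts.

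In the ketone body pathway 13 genes were tested in the lung, 9 of them below 0 (median -0.28), with 5 lower and 0 higher at an unadjusted p of at most 0.05 and 0 past the adjusted threshold. The background at that unadjusted p was 14.5% lower and 15.6% higher. Aacs was 27.8 ± 3.19 CPM in CS and 16.9 ± 4.0 CPM in PS (SD, n = 3 each), a log2 fold change of -0.72 ± 0.20 (SE, edgeR adjusted p = 0.0569), a sign opposite to that in the liver. Of the other 4, those reported here are Acat1, Hmgcll1 with -0.44 ± 0.17 and Slc16a7 with -0.48 ± 0.19. The log2 fold changes of Bdh2, Acat2, Slc16a1, Slc16a6 and the beta-hydroxybutyrate receptor Hcar2 were 0.58, -0.20, -0.13, 0.32 and 0.07.

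Called genes of the lung stood in the neighbouring lists, and are given as a description. The background of such calls was 4.8% higher and 4.43% lower. In pyruvate dehydrogenase control 11 of 12 genes were below 0 (median -0.25) and 3 fell at an adjusted p under 0.05, the kinase Pdk3, the phosphatase regulator Pdpr and the catalytic subunit Pdha1. Pdpr went from 10.8 ± 0.985 to 1.84 ± 1.25 CPM (SD, n = 3 each), a log2 fold change of -2.54 ± 0.50 (SE, edgeR adjusted p = 0.0281). Pdha1 went from 88.4 ± 6.28 to 53.0 ± 4.41 CPM (-0.74 ± 0.14 SE, edgeR adjusted p = 0.0244) and Pdk3 from 19.8 ± 0.318 to 10.9 ± 2.31 CPM (-0.86 ± 0.20 SE, edgeR adjusted p = 0.0385). Pdk1 and Pdk2 had -0.29 ± 0.13 and 0.20 ± 0.14. In the carnitine shuttle 5 of 9 genes were above 0 (median 0.02) and Cpt1c rose from 3.71 ± 0.811 to 10.7 ± 4.14 CPM (1.53 ± 0.34 SE, edgeR adjusted p = 0.0347). Ppara fell from 2.50 ± 0.288 to 0.618 ± 0.280 CPM, at 44 to 52 counts in CS and 7 to 17 in PS (-2.0 ± 0.41 SE, edgeR adjusted p = 0.0312), the 1 called of 13 regulators, of which 7 were above 0.

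Of 20 other fasting-induced genes tested in the lung 13 were below 0 (median -0.33) and 1 fell, Ppp1r3c, a glycogen-targeting phosphatase subunit, with -1.01 ± 0.19 (SE, edgeR adjusted p = 0.0255). That count is near the background, where 4.43% of all genes were called lower and 4.8% higher. Around ANGPTL4, 6 of 7 genes were above 0 (median 0.41) and Lmf1, needed to mature lipoprotein lipase, rose with 0.69 ± 0.17 (edgeR adjusted p = 0.0426), while Angptl8 had 0.65 ± 0.30. The FGF21 list had 4 of 6 above 0 and 0 called. The lipolysis list had 3 of 6 above 0, and its hormone-sensitive lipase Lipe rose with 0.66 ± 0.14 (edgeR adjusted p = 0.0338). In the integrated stress response list, with 7 of 10 above 0, the stress factor Ddit3 (ENSMUSG00000025408, since a second row of that symbol had 0 counts in every library) rose with 0.78 ± 0.16 (edgeR adjusted p = 0.0314) and the serine synthesis enzyme Psat1 fell with -0.94 ± 0.22 (edgeR adjusted p = 0.0374). Of 16 clock genes 9 were above 0, 4 rose and 2 fell, among them Nr1d2 with 0.80, Nr1d1 with 1.29, Per1 with 0.92 and Cry1 with -0.79, and their part in the lung results was not tested. When any of the 3 CS lungs or PS replicate 2 was left out, none of these named genes kept an adjusted p under 0.05, and the calls among all genes went from 802 higher and 740 lower to at most 2 higher and 25 lower. Leaving out PS replicate 1 gave 1752 and 1197 and leaving out PS replicate 3 gave 947 and 1309.

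Markers of other cells in the lung pieces varied between mice. Adipocyte markers summed to 44.8 to 172 FPKM in CS and 36.9 to 164 FPKM in PS, cardiac muscle markers to 100.3 to 165 and 29.0 to 330.0 FPKM, and skeletal muscle markers to 2.41 to 272 and 4.38 to 6.10 FPKM. All of these ranges overlapped between the diets. In log2 fold change, 6 of 7 adipocyte markers (median -1.0), 2 of 2 brown adipocyte markers tested (median -0.94), 4 of 4 skeletal muscle markers tested (median -3.75) and 3 of 7 cardiac muscle markers (median 0.09) were below 0. None of the adipocyte markers below 0 passed an unadjusted p of 0.05, and the 1 above 0, Lipe, was called. Of the brown adipocyte and cardiac muscle markers 1 each was lower at that p, Cidea and Actc1, and 1 marker each of endothelium (Kdr), macrophages (Adgre1) and red cells (Alas2) fell at an adjusted p under 0.05, named after their values were seen. Their lists went both ways. Endothelial (median -0.07) and red cell markers (median -0.37) each had 2 above and 3 below 0. Macrophage markers had 3 above and 2 below 0 (median 0.42), with 2 higher at an unadjusted p of at most 0.05. Pdk4, Cpt1a and Angptl4 are known to be expressed in fat and muscle. The summed alveolar type II markers, of which 2 of 5 were above 0 in log2 fold change, did not overlap, with 14912 to 15865 FPKM in CS and 17628 to 29037 FPKM in PS. The part of these cells in the lung results was not tested.

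Whether the diet effect itself differed between the tissues was tested in 1 fit over all 15 libraries and 17696 genes. None of the members was called, where the background was 0.00565% higher and 0.017% lower, and at an unadjusted p of at most 0.05 there was 1 higher and 0 lower, against 5.54% and 5.4% of all genes. The higher one was Pdk4, whose lung minus liver effect was 1.69 ± 0.71 on the log2 scale (SE, edgeR adjusted p = 0.413, unadjusted p = 0.0290). It was 1.92 without both livers that stood apart (adjusted p = 0.169) and 1.26 without Liver CS replicate 1. The unadjusted p rose above 0.05 without Liver CS replicate 1 (0.0829), Lung CS replicate 1 (0.0638) or Lung PS replicate 1 (0.0634), and with no filter on low counts (0.0636). With mouse as a block the Pdk4 difference was 2.08 (edgeR adjusted p = 0.895, unadjusted p = 0.0191), and 0 genes of the whole table were called. The differences for Bdh1, Acat1, Oxct1, Cpt1a and Angptl4 were -0.61 ± 0.41, -0.62 ± 0.39, 0.40 ± 0.34, -0.09 ± 0.41 and 0.47 ± 0.26, with adjusted p from 0.513 to 0.982. For Bdh1 the difference was -1.18 without Lung PS replicate 1 (adjusted p = 0.235) and -0.33 without Lung PS replicate 2 (adjusted p = 0.880). Leaving out each library in turn gave -0.75 to -0.41 for Acat1, 0.27 to 0.59 for Oxct1 and 0.34 to 0.65 for Angptl4. Of the pathway genes with opposite signs in the tissues, Aacs differed by -2.25 ± 0.51 (SE, edgeR adjusted p = 0.196), Slc16a7 by -1.10 ± 0.29 (adjusted p = 0.246) and Acat2 by -0.87 ± 0.25 (adjusted p = 0.270).

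**Figure D4:**
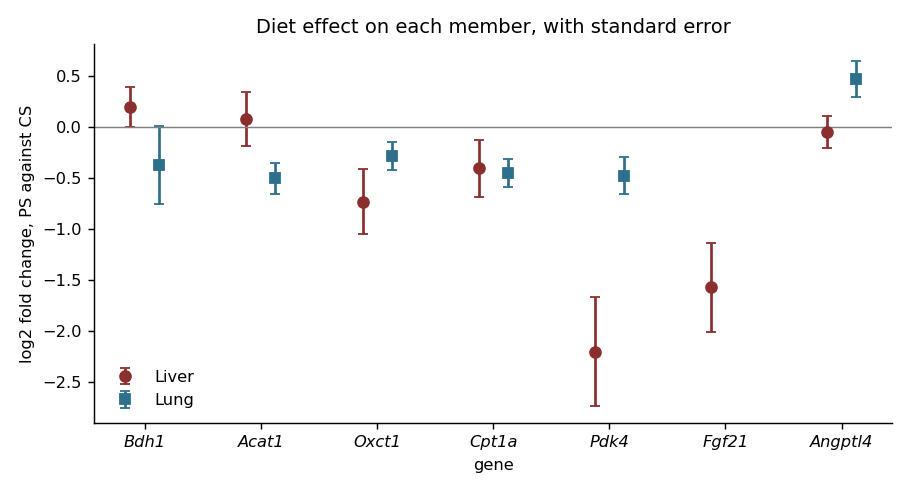
Log2 fold change of PS against CS with its standard error for each gene, livers as red circles and lungs as blue squares, with Fgf21 not tested in the lung. Pdk4 and Fgf21 in the liver lie furthest from 0, at -2.20 and -1.58, and Angptl4 in the lung lies above 0 at 0.47.

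Most of the 7 genes differed between the tissues. On the control diet 6 of the 7 genes were called between lung and liver, 5 lower and 1 higher in the lung, where 30% and 37% of all genes were called in these directions. Of the 5, Fgf21 passed the filter through the livers alone, so its call had to follow and is read only from its counts. With at least 10 counts in every library, which leaves it out, 4 were lower and 1 higher. The size of these folds depends on the scaling. TMM over the 15 libraries was used here, and scaling by library totals, closer to the CPM and FPKM printed for each tissue, moved the median gene by 1.38 on the log2 scale towards the lung and called 12.9% lower and 66.8% higher. With TMM, Bdh1 was 106-fold, Acat1 13.1-fold, Cpt1a 8.81-fold and Angptl4 5.91-fold higher in the liver. Their edgeR adjusted p-values were 2.75e-10, 4.52e-08, 3.67e-07 and 1.41e-08. By library totals they were 41.0-fold, 5.04-fold, 3.39-fold and 2.27-fold higher in the liver, with edgeR adjusted p-values of 1.05e-09, 4.4e-06, 9.41e-05 and 4.13e-05. Oxct1 went the other way, 9.97-fold higher in the lung with TMM, a log2 fold change of 3.32 ± 0.25 (SE, edgeR adjusted p = 7.11e-09), and 25.9-fold higher by library totals (adjusted p = 2.84e-10). Fgf21 had 2918 counts in the 4 CS livers and 3 counts in the 3 CS lungs, a ratio of 2194 with TMM over both tissues (95% interval 750.0 to 10645, exact, counting error only) and of 843 by library totals (288 to 4089). Pdk4 was not called under either scaling, and its direction turned between them, with -0.80 ± 0.51 by TMM (SE, edgeR adjusted p = 0.178) and 0.56 ± 0.52 by library totals (adjusted p = 0.330). With TMM, leaving out each library in turn gave -1.14 to -0.32. It was called without both livers that stood apart, with -1.12 (adjusted p = 0.0104), and without CS replicate 2 alone (adjusted p = 0.0147), while it was -0.32 without Liver CS replicate 1 (adjusted p = 0.591) and -0.42 with mouse as a block (adjusted p = 0.534).

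Levels of different genes were compared per length, as FPKM, within each tissue. In CS livers the order was Cpt1a at 147 ± 54.9, Acat1 at 128 ± 40.4, Angptl4 at 102 ± 2.87, Bdh1 at 52.5 ± 9.14, Fgf21 at 46.8 ± 18.1, Pdk4 at 11.5 ± 7.19 and Oxct1 at 0.943 ± 0.148 FPKM (SD, n = 4). The first 3 overlapped each other in turn, as did Bdh1 and Fgf21. In PS livers Acat1 had the highest mean, 134 ± 32.4 FPKM, but overlapped Cpt1a at 110 ± 22.7 FPKM, which overlapped Angptl4 at 97.9 ± 11.5 FPKM. Fgf21, at 15.6 ± 9.25 FPKM (SD, n = 5), no longer overlapped Bdh1, at 60.1 ± 12.2 FPKM. In CS lungs Angptl4 at 43.6 ± 9.27 and Cpt1a at 42.4 ± 0.934 FPKM led and overlapped, followed by Acat1 at 24.8 ± 3.17 and Oxct1 at 23.8 ± 1.21, which overlapped, and by Pdk4 at 16.7 ± 2.48, Bdh1 at 1.25 ± 0.0868 and Fgf21 at 0.0540 ± 0.0542 FPKM (SD, n = 3). In PS lungs Angptl4 at 60.5 ± 4.25 FPKM no longer overlapped Cpt1a at 31.0 ± 3.15 FPKM.

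**Figure D5:**
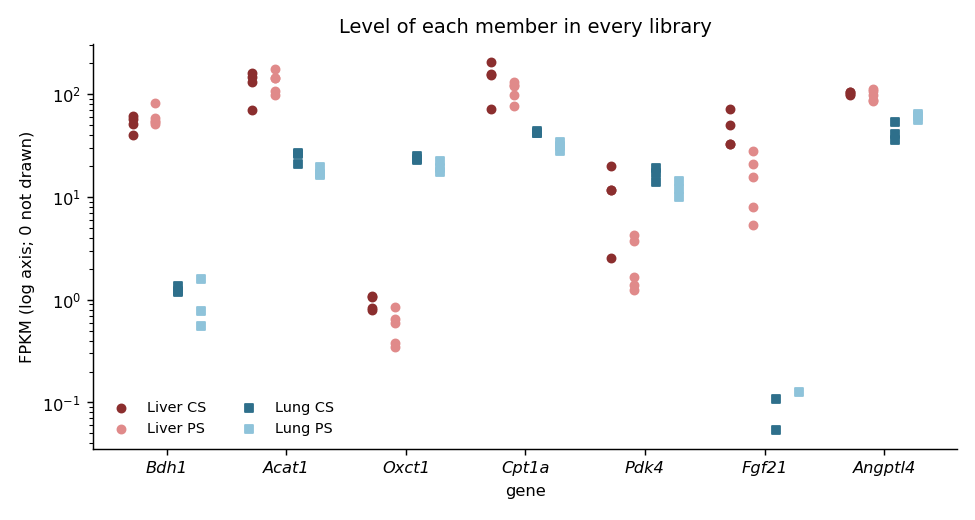
FPKM of each gene in every library on a log axis, livers as circles and lungs as squares, dark for CS and light for PS, with values of 0 not drawn and the tissues' tables scaled separately. Oxct1 lies higher in every lung than in every liver, and Fgf21 in the lung stays near 0.1 FPKM or below.

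For each gene the transcript with the most similar pattern was sought by the smallest root mean square difference of standardized log2 CPM, as a description. Over the 9 livers these were Gatb for Bdh1 (0.172), Ppp1ca for Acat1 (0.138), Sirpa for Oxct1 (0.252), Usp5 for Cpt1a (0.203), Fitm2 for Pdk4 (0.219), Spon2 for Fgf21 (0.281) and Tie1 for Angptl4 (0.583), among at least 7787 genes. The genes next nearest to Oxct1, named after their values were seen, were Clec4f (0.255) and Csf1r (0.270), both on the macrophage list. Over the 6 lungs they were Timm22 for Bdh1 (0.0860), Rprd1b for Acat1 (0.0959), Sqle for Oxct1 (0.0619), Trp53rka for Pdk4 (0.0970) and Clec9a for Angptl4 (0.106), among at least 11220 genes, and with so few samples close patterns are easily found.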

How the data were processed

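RNA-seq was done on livers and lungs of mice on a control or a phytosterol diet. The authors aligned poly(A) reads with Hisat2 2.0.5 to mm10 and counted them per gene with featureCounts 1.5.0-p3, and deposited the counts without normalization. They also deposited FPKM values, scaled by gene length and library, used here for levels. The submitters' notes list DESeq2 1.20.0. The annotation release and strand setting are not given in the sources used here.

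Groups came from the sample labels, and the number of sample columns without a sample was 0. In R 4.3.3, edgeR 4.0.16 (TMM, its default filter on low counts, robust quasi-likelihood test, no covariates) compared the diets within each tissue, and 1 fit over all libraries tested the difference between the tissues. The SE is the absolute log2 fold change divided by the square root of F. Calls needed an adjusted p under 0.05. Alternatives were DESeq2 1.42.0, limma 3.58.1 on log2(FPKM + 1) and log2(FPKM + 0.1), other filters, replicate blocks, leaving out libraries and, added after seeing the data, removal of length or GC trends (loess span 0.3), of mitochondrial counts and of a pair of livers, and library totals in place of TMM between the tissues. The fits were tested on simulated data.

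Each library is from 1 mouse, and p-values cover the spread between these samples. No libraries of a group agreed within counting noise. Intervals cover counting error only. Mouse numbers tie liver and lung of 6 animals, whose deviations from the group means correlated with r of -0.11 to 0.22.

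The members and lists were chosen with earlier results of these data known. Named were the 7 members, the tested genes of the ketone body pathway, Ppara, the paralogues of Pdk4, Cpt1a and Angptl4, up to 4 called genes per list and tissue, and the gene nearest each member, some of which are not reported here, sought where the average log2 CPM reached 3, with 0.5 CPM added. Copies were sought at 95% identity over 200 bases.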

Additional observations from a re-analysis of the deposited data

Results flagged for a closer look

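Of the 14 groups checked for a sample far from the others (each of the 7 genes in Liver CS and in Liver PS), 1 had such a sample, and chance gives about 1 in 20 such groups. Bdh1 in Liver PS replicate 2 had 311 CPM, against 224 CPM in the nearest of the other 4 PS livers, a gap of 0.767 of the range where Dixon's limit for 5 samples is 0.71. Without this liver the log2 fold change of Bdh1 was 0.07, against 0.20 with it.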

How the results depend on the processing

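The groups hold 3 to 5 mice each, a pair of livers has a high mitochondrial share, and the adjusted calls of the lung depend on which library is left out. Pdk4 and Fgf21 in the liver and Acat1 and Cpt1a in the lung passed the adjusted threshold with DESeq2 and not with edgeR. Low counts limit Oxct1 in the liver, at 18 to 71 per library, and Fgf21 in the lung, at 0 to 2. Replicate numbers are shared between the diets but are only names. Same-numbered libraries of the diets deviated with r of -0.41 to -0.02 in the liver and -0.01 to 0.09 in the lung, and 0 of 9 livers and 3 of 6 lungs correlated best with their own number. With the replicate block, edgeR called 0 genes higher in the liver and 817 higher and 806 lower in the lung, and with mouse as a replicate block 0 higher and 0 lower for the difference between the tissues, and the block changed no call of a member.

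Genes at an adjusted p under 0.05 (edgeR 1 higher and 0 lower in the liver, 802 and 740 in the lung, 1 and 3 for the difference) numbered as follows. DESeq2 gave 110 higher and 53 lower in the liver with 2 members lower, 1611 and 1479 in the lung with 2 members lower, and 91 and 137 for the difference, where 2 members were higher at an unadjusted p of at most 0.05. No filter gave 20 and 6 in the liver, 1220 higher in the lung, and 2 and 8 for the difference, with 0 members at an unadjusted p. At least 10 counts in every library gave 2 higher in the liver, 2 higher for the difference, and, over fewer genes tested, 3258 higher and 3457 lower between the tissues. Limma gave 5 higher and 1 lower in the liver and 495 higher in the lung on log2(FPKM + 1), and 4 and 528 higher on log2(FPKM + 0.1). Chosen after seeing the data were removal of the length trend, with 0 higher in the liver, of mitochondrial counts, with 2 higher, and of both livers that stood apart, with 32 higher and 16 lower in the liver, 1 member lower, and for the difference 4 and 8, with 2 members higher at an unadjusted p. Library totals in place of TMM, also chosen then, called 11815 higher and 2285 lower between the tissues and turned the tissue value of Pdk4 to 0.56, while 5 members lower and 1 higher were called as with TMM. The cause of the other shifts was not tested.

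Leaving out each library in turn gave 0 to 43 genes higher, 0 to 22 lower and 0 to 1 members lower in the liver, with the most calls without CS replicate 2. In the lung it gave 0 to 1752 higher, 0 to 1309 lower and 0 to 3 members lower, with 0 to 1 members higher and 1 to 5 lower at an unadjusted p. For the difference it gave 0 to 3 higher, 0 to 9 lower and, at an unadjusted p, 0 to 2 members higher and 0 to 1 lower.

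Signs turned in some settings. Without both livers that stood apart the liver value of Acat1 was -0.02 and the difference of Cpt1a was 0.10. Angptl8 in the liver was 0.000906 on log2(FPKM + 0.1), 0.22 with the replicate block and 0.37 without both livers, and with the length trend removed the lung value of Hcar2 was -0.010. With each library left out in turn, the log2 fold change ran in the liver from -0.12 to 0.21 for Acat1, -0.032 to 0.41 for Slc16a6 and -1.01 to 0.72 for Angptl8. In the lung it ran from -0.31 to 0.31 for Hcar2, -0.0097 to 1.03 for Bdh2 and -0.42 to 0.12 for Slc16a1, and for the difference from -0.28 to 0.15 for Cpt1a.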
